A study of Mus musculus with 35 samples.

Results

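The genes described here are transcripts of the exocrine pancreas that were read in samples of mouse colon: Cpa1, Ctrb1, Pnliprp1, Pnlip, Cel and Cela2a, which encode digestive enzymes, and 3 members of the Reg family, Reg1, Reg2 and Reg3a. They were taken by gene symbol from the table of all arrays, and the question was whether the 3 Reg genes followed the enzymes or followed colitis from mouse to mouse. The members were chosen by their levels in these same arrays, so those levels are given as a description, without a test. Of the 9 genes, 8 had a probe set with their symbol among the 19908 genes of the table, and Pnlip was not analysed here.

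Acinar cells of the pancreas make digestive enzymes, store them as inactive or cofactor-dependent forms in zymogen granules and release them into the duodenum. Reg proteins are small secreted proteins with a C-type lectin fold. Reg1 and Reg2 are products of acinar cells that are known to increase with injury or regeneration of the pancreas. Reg3b and Reg3g are known in the gut as lectins that act against bacteria. Reg3a is known from both organs, and the others are not limited to the organ named here.

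Each array read total RNA from the colon of 1 C57BL/6N mouse, and 5 mice made up each of 7 groups. Wild-type and Reg3a-transgenic mice were left untreated or drank 3% dextran sulfate sodium (DSS), a detergent-like polymer that injures the colon epithelium, for 5 days and then water. Germ-free (axenic) mice were given the flora of wild-type donors or of transgenic donors 3 weeks before the same DSS course. A further axenic group, the controls, has a label that places DSS ahead of a microbial transfer, and the sources used here do not state whether these mice carried flora. Colons were taken on day 12. These sources also do not state the genotype of the axenic mice, the sex, age, cage or batch of any mouse, how the colon was dissected, or the species and promoter of the Reg3a transgene. The mouse Reg3a probe set therefore need not read the transgene. Each mouse has a number of its own in the titles. Xist, the RNA that female cells make from the inactive X chromosome, read 4.8 to 5.24 in all 15 axenic mice. In the conventional mice it read 10.86 to 11.94 in 8 mice, 2 in each group, and 4.79 to 5.38 in the other 12. The conventional and axenic mice thus differed in Xist, and its part in the differences between them was not tested.

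The 250 bases before the start site of a gene are shown for the 3 Reg genes, whose patterns parted from each other. Shown beside them are 2 of the 6 enzymes, Cel and Cela2a, whose motifs are not those of all the enzymes. Sequences are RefSeq's, of the GRCm38.p6 build, 5′ to 3′ on the strand of the gene, and all 9 genes had one in the table used. Capitals mark CACCTG or its reverse complement CAGGTG, which is a form of the E-box CANNTG, and TTTCCCA or its reverse complement TGGGAAA. These are the parts of the site bound by PTF1, the acinar transcription factor complex.
Reg1, chr6:78425733-78425982, plus strand: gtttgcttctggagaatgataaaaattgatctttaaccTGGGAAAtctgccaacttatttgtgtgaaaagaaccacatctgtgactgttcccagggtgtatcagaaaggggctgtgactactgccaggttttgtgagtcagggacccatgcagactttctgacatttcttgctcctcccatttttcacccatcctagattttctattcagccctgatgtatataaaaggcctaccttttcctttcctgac
Reg2, chr6:78404905-78405154, plus strand: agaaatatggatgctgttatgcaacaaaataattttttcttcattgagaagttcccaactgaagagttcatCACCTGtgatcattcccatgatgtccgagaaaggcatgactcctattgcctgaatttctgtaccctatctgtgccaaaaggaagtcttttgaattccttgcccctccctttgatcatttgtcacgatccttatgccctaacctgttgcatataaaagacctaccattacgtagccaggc
Reg3a, chr6:78380459-78380708, plus strand: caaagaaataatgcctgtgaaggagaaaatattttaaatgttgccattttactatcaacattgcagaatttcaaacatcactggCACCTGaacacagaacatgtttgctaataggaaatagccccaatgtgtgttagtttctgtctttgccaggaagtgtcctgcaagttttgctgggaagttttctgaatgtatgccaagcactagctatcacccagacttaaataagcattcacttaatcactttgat
Cel, chr2:28563404-28563653, minus strand: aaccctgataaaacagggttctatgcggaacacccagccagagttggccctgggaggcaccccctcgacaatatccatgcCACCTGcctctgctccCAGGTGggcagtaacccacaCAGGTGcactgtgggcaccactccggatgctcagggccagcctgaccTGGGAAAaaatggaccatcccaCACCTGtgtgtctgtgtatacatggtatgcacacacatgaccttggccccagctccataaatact
Cela2a, chr4:141826006-141826255, minus strand: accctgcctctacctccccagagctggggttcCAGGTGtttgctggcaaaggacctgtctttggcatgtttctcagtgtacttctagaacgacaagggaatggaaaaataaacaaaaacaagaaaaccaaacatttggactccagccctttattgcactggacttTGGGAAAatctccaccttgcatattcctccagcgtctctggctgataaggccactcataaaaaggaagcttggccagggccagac
The Reg1 window held TTTCCCA, on the reverse strand, at position -212 from the start site, and no CACCTG. The windows of Reg2 and Reg3a held CACCTG, at -179 and -166, and no TTTCCCA. Both enzymes printed held both motifs, and the Cel window had CACCTG 4 times. No other enzyme held both: Cpa1 and Ctrb1 held TTTCCCA and no CACCTG, and Pnliprp1 and Pnlip held neither. Among the 9 genes TTTCCCA was found in 5 (Cpa1, Ctrb1, Cel, Cela2a and Reg1), against 6.82% of 32851 promoter windows of the same length. CACCTG was found in 4 of the 9 (Cel, Cela2a, Reg2 and Reg3a), against 17.2% of all windows. The wider E-box CANNTG was found in 8 of 9, against 66.2% of all, and every CACCTG is also a CANNTG. A match is a run of letters and not a measured binding site. The 3 Reg genes lie side by side on chromosome 6, in a cluster whose order is Reg3b, Reg3d, Reg3a, Reg2, Reg1 and Reg3g. Of aligned bases in their windows 60.3% were identical between Reg1 and Reg2, 60.4% between Reg2 and Reg3a and 52.7% between Reg1 and Reg3a. The 18 pairs of a Reg window with an enzyme window had a median of 53.5% and at most 58.9%, so the first 2 values lay above all of these and the last did not.

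The enzymes were not evenly present in the colons. They stood high in a minority of mice, and those mice were spread over 6 of the 7 groups. Values are log2 signal after normalization, on which a difference of 1 is a doubling, and levels are compared between mice for a gene, not between genes. Cpa1, the carboxypeptidase that removes residues from the end of a protein chain, read 11.49 in WT9, 9.2 in WT8, 8.03 in WT7, 12.9 in WT11 and 6.23 in WT10 among untreated wild-type mice. Untreated transgenic mice read 12.49 in TG631, 7.01 in TG31, 8.09 in TG29, 6.75 in TG28 and 6.28 in TG26. Within each of these untreated groups the highest and lowest mouse were thus more than 6 log2 units apart. With DSS the conventional wild-type mice read 5.92 in WT65, 6.6 in WT56, 9.94 in WT55, 6.42 in WT53 and 5.74 in WT52. The DSS transgenic mice read 5.77 in TG49, 6.12 in TG48, 6.58 in TG47, 6.38 in TG46 and 6.13 in TG44. In the first of these groups 1 mouse, WT55, stood above the others, and in the second none did. The axenic recipients of wild-type flora read 6.61 in WT880, 11.01 in WT793, 12.21 in WT639, 12.12 in WT597 and 12.05 in WT098. Recipients of transgenic flora read 10.51 in TG922, 5.96 in TG749, 6.32 in TG713, 9.66 in TG632 and 11.04 in TG446. The controls read 6.86 in CT677, 6.95 in CT517, 9.64 in CT465, 6.45 in CT229 and 6.43 in CT093. Cpa1 was therefore high in 4 of 5 mice with wild-type flora, in 3 of 5 with transgenic flora and in 1 of 5 controls.

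Ctrb1, the precursor of the protease chymotrypsin, ranged from 6.26 in TG749 to 13.21 in WT639, and Cela2a, a pancreatic elastase, from 6.51 in TG49 to 12.2 in WT11. The bile-salt-stimulated lipase Cel ranged from 5.08 in WT65 to 11.21 in WT11. Pnliprp1, a relative of pancreatic lipase with little lipase activity of its own, ranged from 5.04 in WT52 to 11.01 in WT11. Over the 35 mice these ranges were 5.69 to 7.16 log2 units for the 5 enzymes, where the median range of all 19908 genes was 1.09. The enzymes moved together: correlations between pairs of them over the mice ran from 0.947 (Ctrb1 with Pnliprp1) to 0.992 (Pnliprp1 with Cel). The mean of the 5 is used below as the enzyme level of a mouse. It was 12.05 in the untreated wild-type mouse WT11, 11.71 in the untreated transgenic mouse TG631 and 11.61, 11.53 and 11.45 in WT639, WT098 and WT597, recipients of wild-type flora. Next came WT793 at 10.51, untreated WT9 at 10.39 and the transgenic-flora recipient TG446 at 10.22, then TG632 and TG922 at 9.14 each, DSS WT55 at 8.81, untreated WT8 at 8.53 and the control CT465 at 8.4. The untreated mice TG29 and WT7 read 7.4 and 7.3, and the other 20 mice lay between 5.78 and 6.64. Which cells in these samples held the enzyme transcripts, and whether acinar cells were among them, was not tested. In a bulk sample more of such cells and more RNA per cell cannot be told apart.

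**Figure D1:**
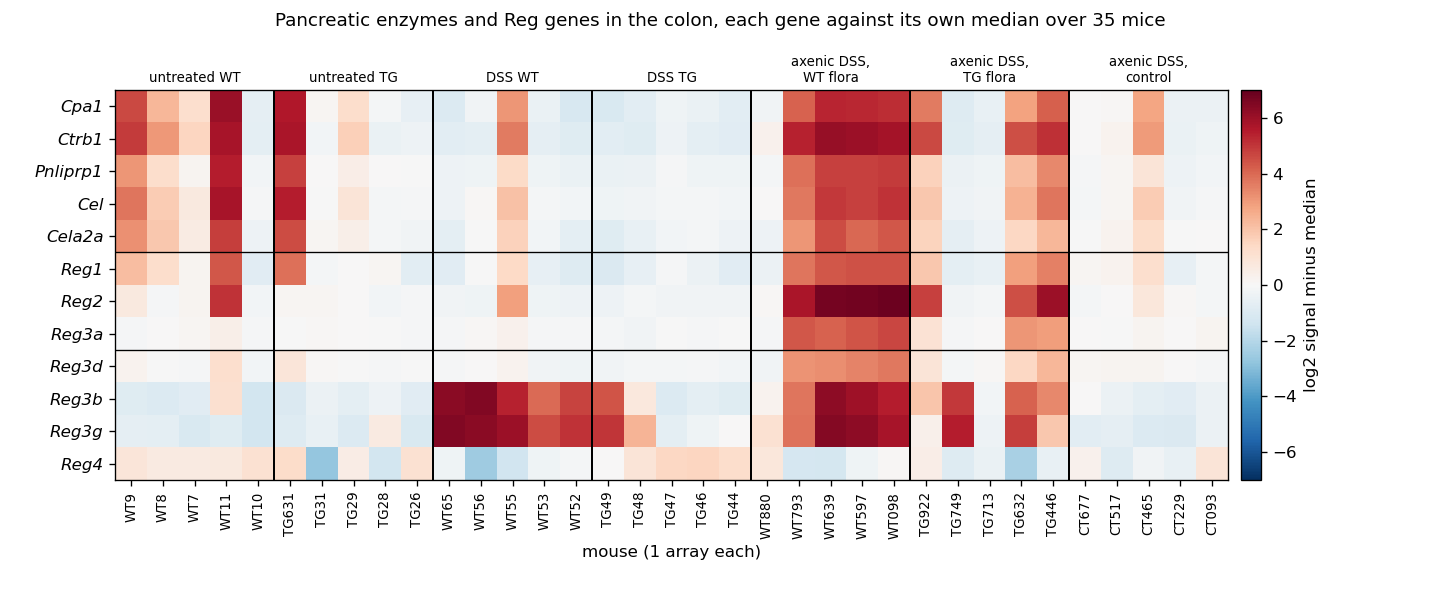
Each column is 1 mouse, ordered by group, and each row a gene, with colour showing log2 signal minus the median of that gene over 35 mice; rows run from the 5 enzymes to Reg1, Reg2 and Reg3a and then the other Reg genes. The enzymes and Reg1 are high in the same mice, Reg3a is high in 7 axenic recipients, and Reg3b and Reg3g are high in all 5 DSS wild-type mice.

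Reg1 followed the enzymes. It read 8.74 in WT9, 7.82 in WT8, 6.76 in WT7, 10.91 in WT11 and 5.79 in WT10 among untreated wild-type mice. The untreated transgenic mice read 10.45 in TG631, 6.47 in TG31, 6.58 in TG29, 6.73 in TG28 and 5.86 in TG26. With DSS the wild-type group read 5.76 in WT65, 6.57 in WT56, 7.95 in WT55, 6.03 in WT53 and 5.66 in WT52, and the transgenic group 5.59 in TG49, 6.01 in TG48, 6.51 in TG47, 6.15 in TG46 and 5.76 in TG44. The highest mouse of each of these 4 groups, WT11, TG631, WT55 and TG47, was also the highest of its group for the enzyme mean. In recipients of wild-type flora Reg1 read 6.19 in WT880, 10.3 in WT793, 10.91 in WT639, 11.04 in WT597 and 11.04 in WT098. With transgenic flora it read 8.44 in TG922, 5.92 in TG749, 6.04 in TG713, 9.46 in TG632 and 10.1 in TG446, and in controls 6.74 in CT677, 6.82 in CT517, 7.73 in CT465, 6.01 in CT229 and 6.45 in CT093. The mice WT880, TG749 and TG713, low for the enzymes, were low for Reg1 as well. Over all 35 mice r between Reg1 and the enzyme mean was 0.98 (Spearman rho 0.967), and with deviations from group means it was 0.978. It was 0.982 in the 20 conventional mice and 0.99 in the 15 axenic mice, and 0.977 without the 2 mice farthest from the median. Reg1 was higher by 0.76 for each log2 unit of the enzyme mean in conventional mice and by 0.91 in axenic mice. The mice share a tissue, an array type and a normalization, and the genes were chosen for this pattern, so these coefficients describe the arrays and carry no p-value.

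Reg2 followed the enzymes in the axenic recipients of flora and in some of the other mice. Among untreated wild-type mice it read 5.52 in WT9, 4.76 in WT8, 5.02 in WT7, 9.88 in WT11 and 4.61 in WT10. Among untreated transgenic mice it read 4.98 in TG631, 4.94 in TG31, 4.82 in TG29, 4.64 in TG28 and 4.73 in TG26. The pair with the highest enzyme means of all, WT11 and TG631, thus differed for Reg2: it stood 5.05 above its median over all mice in WT11 and 0.15 above it in TG631. These 2 mice also differed in Xist, which read 4.85 in WT11 and 11.83 in TG631, and its part in Reg2 was not tested. With DSS it read 4.55 in WT65, 4.53 in WT56, 7.67 in WT55, 4.52 in WT53 and 4.47 in WT52, and 4.47 to 4.69 in the 5 DSS transgenic mice. In recipients of wild-type flora it read 4.91 in WT880, 10.53 in WT793, 11.52 in WT639, 11.57 in WT597 and 11.71 in WT098. With transgenic flora it read 9.6 in TG922, 4.56 in TG749, 4.68 in TG713, 9.33 in TG632 and 10.82 in TG446. Thus the 7 recipients with high enzymes were high for Reg2, and the other 3 recipients were low. The controls read 4.66 in CT677, 4.84 in CT517, 5.63 in CT465, 4.89 in CT229 and 4.71 in CT093. CT465, with an enzyme mean of 8.4, was the highest of them but only 0.81 above the median over all mice. The coefficient with the enzyme mean was 0.828 over all mice (rho 0.89; 0.814 with deviations from group means; 0.905 without the 2 farthest mice), 0.7 in conventional mice and 0.975 in axenic mice. For each log2 unit of the enzyme mean Reg2 was higher by 0.47 in conventional mice and by 1.34 in axenic mice.

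Reg3a was low in every conventional mouse, those with high enzymes included. Untreated wild-type mice read 5.08 in WT9, 5.2 in WT8, 5.28 in WT7, 5.58 in WT11 and 5.1 in WT10, and untreated transgenic mice 5.15 in TG631, 5.24 in TG31, 5.16 in TG29, 5.11 in TG28 and 5.08 in TG26. DSS wild-type mice read 5.1 in WT65, 5.25 in WT56, 5.48 in WT55, 5.09 in WT53 and 5.07 in WT52, and DSS transgenic mice from 4.89 to 5.15. None of the 20 conventional mice lay more than 0.42 above the median over all mice. In recipients of wild-type flora Reg3a read 5.1 in WT880, 9.5 in WT793, 9.3 in WT639, 9.54 in WT597 and 9.84 in WT098. With transgenic flora it read 6.19 in TG922, 5.06 in TG749, 5.19 in TG713, 8.27 in TG632 and 8.11 in TG446. The 5 controls read 5.14 to 5.35, with 5.34 in CT465, whose enzyme mean was 8.4. Its 7 high mice were the recipients with high enzymes and high Reg2. With the enzyme mean r was 0.703 over all mice (rho 0.741; 0.63 with deviations from group means; 0.85 without the 2 farthest mice), 0.944 in axenic and 0.574 in conventional mice. It was higher by 0.83 for each unit of the enzyme mean in the axenic mice and by 0.04 in the conventional mice. TG922 had the same enzyme mean as TG632, 9.14, but Reg3a was 6.19 against 8.27.

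**Figure D2:**
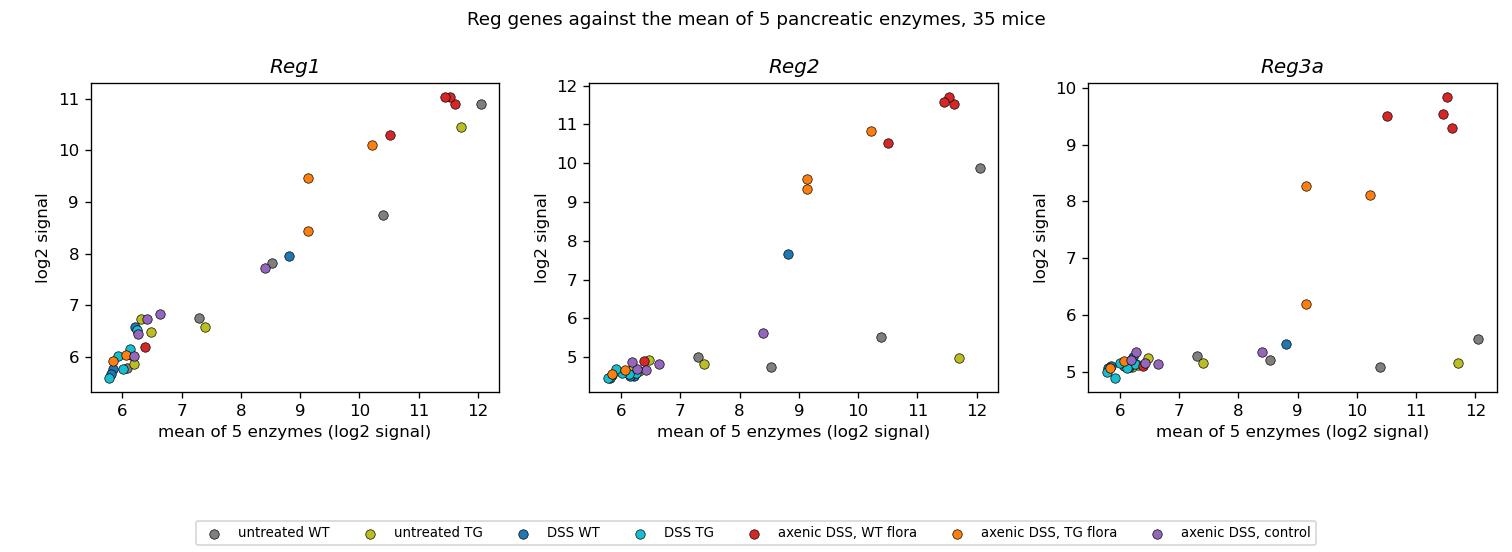
Each point is 1 of 35 mice, coloured by group; the horizontal axis is the mean log2 signal of the 5 enzymes and the vertical axis the log2 signal of Reg1, Reg2 or Reg3a. Reg1 is higher with the enzyme mean in both conventional and axenic mice (by 0.76 and 0.91 per log2 unit). For Reg2 the mice TG631, WT9, WT8 and CT465 lie low, and for Reg3a all conventional mice and all controls do.

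Colitis was read from the mean of 20 inflammatory genes, among them S100a8 and S100a9, the subunits of the neutrophil protein calprotectin, and Lcn2, an iron-binding protein of injured epithelium. This mean was 6.05 to 6.31 in untreated wild-type mice and 7.15 to 10.2 in DSS wild-type mice. WT11 had both the highest enzyme mean, 12.05, and the lowest colitis mean, 6.05, of all mice, with Reg1 at 10.91 but Reg3a at 5.58. TG631, WT9, WT8 and CT465, with enzyme means of 8.4 to 11.71, had colitis means of 6.12 to 6.5 and Reg3a of 5.08 to 5.34. The 7 recipients high for Reg3a had colitis means of 8.03 to 10.55. WT55, high for both means (8.81 and 10.2), read 5.48 for Reg3a. The low recipients TG749, TG713 and WT880 had colitis means of 10.04, 10.03 and 7.6. TG713 had the highest S100a8, 11.79, and read 6.04 for Reg1, 4.68 for Reg2 and 5.19 for Reg3a. TG49, the DSS transgenic mouse with the highest colitis mean of its group (9.61), had the lowest enzyme mean of all, 5.78, and the lowest Reg1, 5.59. With the colitis mean r was 0.231 for Reg1 (rho 0.0258), 0.461 for Reg2 (rho 0.0902) and 0.53 for Reg3a (rho 0.189) over all mice. In the conventional mice alone r was -0.29, 0.0375 and -0.0292 (rho -0.511, -0.611 and -0.417), so that by rank all 3 were lower in mice with a higher colitis mean. In the axenic mice r was 0.394, 0.439 and 0.514 (rho 0.168, 0.161 and 0.236). Without the 2 mice farthest from the median r over the others was 0.153, 0.392 and 0.497. The enzyme mean itself had r = 0.16 with the colitis mean. Reg3b and Reg3g, the antibacterial lectins at either end of the cluster, had r = 0.726 and 0.722 with the colitis mean, and 0.255 and 0.157 with the enzyme mean. In the axenic mice alone, however, they had 0.767 and 0.685 with the enzyme mean and 0.627 and 0.643 with the colitis mean. In the conventional mice the values were -0.222 and -0.335 with the enzyme mean and 0.84 and 0.88 with the colitis mean. Both lectins thus went with the enzymes in the axenic mice too. Of the 6 Reg genes each was set against both means, 12 pairs in all, with r and rho also taken in subsets of the mice.

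**Figure D3:**
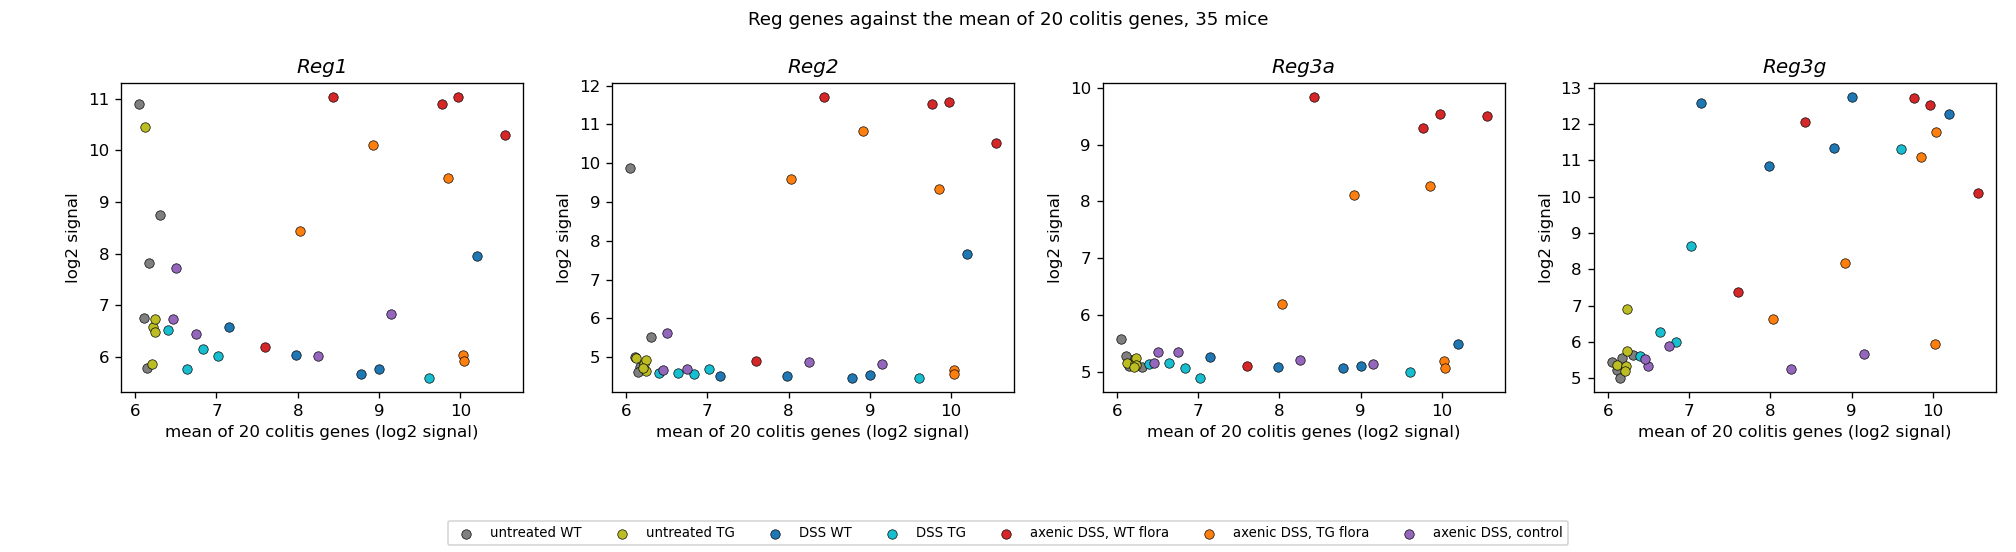
Each point is 1 of 35 mice, coloured by group; the horizontal axis is the mean log2 signal of 20 colitis genes and the vertical axis the log2 signal of Reg1, Reg2, Reg3a or Reg3g. Reg3g is high in all 5 DSS wild-type mice, where Reg1, Reg2 and Reg3a are low except for Reg1 and Reg2 in WT55.

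The other Reg genes were measured apart from the rule, and their differences were tested with limma across all genes (Benjamini-Hochberg adjustment over 19908 genes, called at adjusted p under 0.05). DSS raised Reg3b from 6.02 ± 0.94 to 11.94 ± 1.06 in wild-type mice (SD, n = 5; log2 difference 5.92, SE 0.54, adjusted p = 0.000357). Reg3g rose from 5.38 ± 0.26 to 11.96 ± 0.83 (6.59, SE 0.34, adjusted p = 3.53e-06), and Reg4, a Reg gene of goblet and endocrine cells, fell by 1.68 (SE 0.39, adjusted p = 0.0339). The Reg4 call was lost when any 1 of the 5 untreated mice was left out (adjusted p = 0.0644 to 0.0875), with all 35 arrays in 1 model (0.0654) and with the mean of the other acinar genes as a covariate (0.0832). Reg3d read 4.51 to 5.07 in DSS and 4.62 to 6.02 in untreated wild-type mice (adjusted p = 0.696). In that comparison 5.13% of all genes were called. In wild-type-flora recipients against axenic controls Reg3b (4.8, SE 0.94), Reg3g (5.42, SE 0.85) and Reg3d (2.59, SE 0.62) rose, with adjusted p of 0.00166, 0.000658 and 0.00451, where 67.3% of all genes were called and 32.1% were called higher. With that acinar mean as a covariate Reg3d was at 0.61 (SE 0.39, adjusted p = 0.235). Reg3d had the pattern of Reg3a: WT793, WT639, WT597 and WT098 read 7.98, 8.11, 8.3 and 8.54, WT880 read 4.56, and the 5 controls read 4.76 to 5.04. It differed from Reg3a in the untreated mice with the most enzyme transcript, where it read 6.02 in WT11 and 5.69 in TG631, above the other untreated mice (4.62 to 5.09). None of the 4 passed in limma in the other 6 contrasts. For DSS in transgenic mice 4.55% of all genes passed, and 0 of the 4 had an unadjusted p under 0.05, beside 26.2% of all genes. For genotype without DSS 0.0753% passed, with 0 of the 4 and 5% of all genes at the unadjusted limit. For genotype with DSS 0.00502% passed, with 3 of the 4 and 5.17% at that limit, and for the interaction 0.156% passed, with 3 of the 4 and 7.42%. For transgenic flora against controls 0.337% passed, with 2 of the 4 and 18.1% at the unadjusted limit. For transgenic against wild-type flora no gene of the table passed (0% of all genes), with 1 of the 4 and 34.4% at that limit. Under DSS transgenic mice read lower than wild-type mice for Reg3b by -4.84 (SE 0.96, adjusted p = 0.227) and for Reg3g by -4.4 (SE 0.97, adjusted p = 0.29).

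Group means of the members lay between the high and the low mice of a group. For Cpa1, Ctrb1, Pnliprp1, Cel and Reg1 the order from high to low was wild-type flora, untreated wild-type, transgenic flora, untreated transgenic, axenic control, DSS wild-type and DSS transgenic. Cela2a had the same order except that untreated transgenic (8.33 ± 2.05, SD, n = 5) stood above transgenic flora (8.25 ± 1.28). Reg2 and Reg3a had the recipients of wild-type flora first (10.05 ± 2.91 and 8.65 ± 2.0) and those of transgenic flora next (7.8 ± 2.95 and 6.56 ± 1.55). Of 48 neighbouring pairs of means in these orders, 2 were farther apart than the larger SD of the pair. One was Reg3a between the 2 flora groups, with a gap of 2.09. The other was Reg2 between untreated and DSS transgenic mice (4.82 against 4.58), a gap of 0.24 at signals that may be background.

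**Figure D4:**
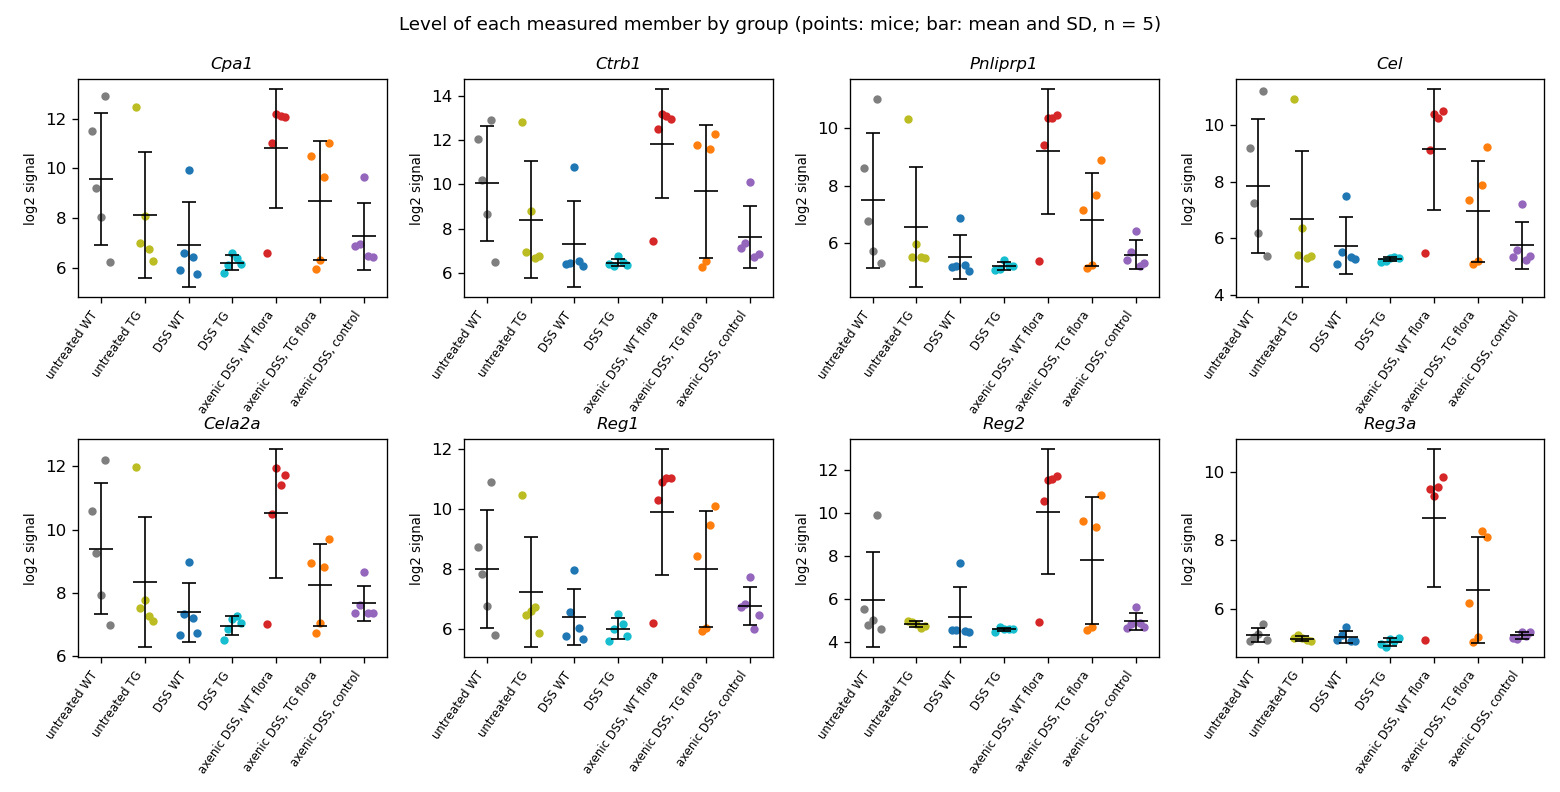
Each panel is 1 gene and each point 1 mouse, in log2 signal, by group; the horizontal bar is the group mean and the whiskers are 1 SD (n = 5), and the vertical axes differ between panels and do not start at 0. For the enzymes and Reg1 most groups hold both high and low mice, Reg3a is high in 7 recipients of flora and low in all other mice, and the DSS transgenic group is low in every panel.

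DSS in wild-type mice went with lower enzyme means, by -2.78 (SE 1.23) for Ctrb1, -2.65 (SE 1.2) for Cpa1, -2.1 (SE 0.98) for Cel, -2.01 (SE 0.86) for Cela2a and -1.97 (SE 0.93) for Pnliprp1. Reg1 differed by -1.61 (SE 0.83), Reg2 by -0.81 (SE 1.0) and Reg3a by -0.05 (SE 0.12), and the 2 groups overlapped for all 8, beside 6.16% of all genes that did not. Reg2 was higher by 0.17 with DSS once WT11 was left out. In transgenic mice the DSS differences were -1.95 (SE 0.99) for Ctrb1, -1.93 (SE 0.95) for Cpa1, -1.22 (SE 0.7) for Reg1, -0.24 (SE 0.08) for Reg2 and -0.1 (SE 0.08) for Reg3a. There 1 of the 8 members, Pnliprp1 (5.06 to 5.43 against 5.48 to 10.29), did not overlap, beside 8.7% of all genes. Cpa1 was at -0.83 in this comparison without TG631. Reg3b and Reg3g did not pass there (adjusted p = 0.38 and 0.228), and for none of the 8 members did the difference between the DSS effects of the genotypes exceed its SE. The largest was 0.82 (SE 1.71, Ctrb1), and without WT11 the sign turned for Cpa1, Pnliprp1, Cel, Cela2a, Reg1 and Reg2.

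Transgenic against wild-type mice differed by -1.65 (SE 1.38) for Ctrb1, -1.14 (SE 0.83) for Reg2, -0.79 (SE 1.0) for Reg1 and -0.1 (SE 0.1) for Reg3a without DSS. Under DSS the differences were -0.82 (SE 0.75), -0.57 (SE 0.54), -0.39 (SE 0.39) and -0.15 (SE 0.1). Under DSS the values rested on WT55: without it Cpa1 stood at 0.03, Ctrb1 at 0.05, Pnliprp1 at 0.03 and Reg2 at 0.06.

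In axenic DSS mice, recipients of wild-type flora stood above controls by 4.22 (SE 1.07) for Ctrb1, 3.57 (SE 0.83) for Pnliprp1, 3.53 (SE 1.03) for Cpa1, 3.4 (SE 0.86) for Cel and 2.83 (SE 0.79) for Cela2a. Reg2 stood 5.1 above (SE 1.1), Reg3a 3.41 (SE 0.75) and Reg1 3.15 (SE 0.82). The groups overlapped for all 8, beside 44.7% of all genes that did not, and WT880 lay within or below the range of the controls for each of them. The spread of values within an array (SD over genes) was 1.72 to 1.89 in these recipients and 1.37 to 1.56 in the controls, and its part in the difference was not tested. Recipients of transgenic flora stood above the same controls by 2.85 (SE 1.12) for Reg2, 2.07 (SE 1.25) for Ctrb1, 1.43 (SE 1.03) for Cpa1, 1.32 (SE 0.59) for Reg3a and 1.24 (SE 0.76) for Reg1. These 2 comparisons share their control mice. Transgenic-flora against wild-type-flora recipients differed by -2.37 (SE 1.01) for Pnliprp1, -2.25 (SE 1.56) for Reg2, -2.09 (SE 0.95) for Reg3a and -1.9 (SE 1.07) for Reg1.

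The mean of 26 other acinar genes of each mouse was put in the fit, an alternative chosen after seeing the data. The enzymes and Reg1 then differed by -0.55 to 0.94 in all 8 contrasts. The acinar mean had r = 0.989 with the enzyme mean, and Reg1 had 0.98 with it, so smaller differences for these genes are built into this fit. Reg2 stood 1.46 (SE 0.52) above controls with wild-type flora and 1.86 (SE 0.4) with transgenic flora. For Reg3a the values were 1.11 (SE 0.53) and 0.92 (SE 0.42), and for the enzyme Ctrb1 0.65 (SE 0.44) and 0.92 (SE 0.25). The other enzymes and Reg1 stood 0.04 to 0.75 above controls with wild-type flora and 0.09 to 0.64 with transgenic flora. For transgenic against wild-type flora Reg2 changed from -2.25 to 1.11 (SE 0.36). In DSS against untreated wild-type mice Reg2 changed from -0.81 to 1.38 (SE 0.64).

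Other genes of the acinar cell were compared with the members from a list of 34, of which 26 were measured. Over 35 mice their mean had r = 0.989 with the enzyme mean. Among the 26 genes, 15 had r over 0.8 and 9 had r under 0.6. Cpb1, a second pancreatic carboxypeptidase, had the widest range, 6.9 log2 units (r = 0.994), followed by the trypsinogens Try5 (6.54, r = 0.987) and 2210010C04Rik (6.35, r = 0.991) and by Rnase1, pancreatic ribonuclease (5.85, r = 0.991), the elastase Cela3b (5.6, r = 0.99) and Ctrl, a chymotrypsin-like protease (5.54, r = 0.987). Ptf1a, which encodes a subunit of the factor that drives the acinar program, ranged over 0.47 (r = -0.0992), and its partner Rbpjl over 1.16 (r = 0.125). Ptf1a read 5.11 to 5.57, signals that may be background, so these readings cannot tell whether Ptf1a followed the enzymes. Near-identical trypsinogen genes can share probes, so the Try genes are uncertain as separate readings.

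Of these 26 genes, 2 fell with DSS in wild-type mice: Cela1 by 2.25 (SE 0.34, adjusted p = 0.0056) and Sycn by 1.69 (SE 0.24, adjusted p = 0.00364). Lower calls made up 2.13% of all genes there. Cela1 followed the enzyme mean only in part (r = 0.671). It read 9.36 in untreated WT10, whose enzymes were low, and 7.09 to 8.22 in the DSS wild-type mice. Sycn, a zymogen granule protein, read 13.25 to 13.51 in the 5 untreated wild-type mice, WT10 with its low enzymes included, and its r with the enzyme mean was 0.0554. The list's median difference was -0.77, against -0.0245 for all genes. Sycn also fell in DSS transgenic mice, by 0.78 (SE 0.17, adjusted p = 0.0269), the 1 gene of the 26 that passed, beside 1.08% of all genes (median -0.66, all genes -0.0149), but it did not pass when TG631, TG29, TG26, TG48 or TG46 was left out. With wild-type flora against controls 15 of the 26 rose and 4 fell, beside 32.1% and 35.2% of all genes (median 0.89, all genes -0.0342). Cpb1 rose by 4.09 (SE 1.09, adjusted p = 0.00726), Try5 by 3.53, 2210010C04Rik by 3.42, Cela3b by 3.12, Rnase1 by 2.96, Ctrl by 2.51 and Cela1 by 1.56, with adjusted p of 0.014 or less. The other 8 that rose were Clps (2.39), Try10 (2.46), Prss2 (2.4), Pnliprp2 (2.29), Pla2g1b (1.12), Serpini2 (1.0), Pdia2 (0.79) and Try4 (0.7). Those that fell were Gm5771 (-0.61), Ctrc (-0.46), Rbpjl (-0.46) and Aqp12 (-0.38). With quantile normalization Cela1 (adjusted p = 0.065), Ctrl (0.0529), Aqp12 (0.0741) and Pla2g1b (0.106) did not pass. Leaving out 1 mouse ended the call of Pla2g1b (WT098, WT597, WT639, CT093, CT229, CT465 or CT677), Serpini2 (WT098, WT597, WT639, CT093, CT465 or CT677) and Try4 (WT098, WT597 or CT517). With the mean of the list as a covariate 2 of the 26 passed there. That mean includes each gene it adjusts, so a loss of calls is built into this fit. In the other 5 contrasts none passed in limma. At an unadjusted p under 0.05 there were 10 for transgenic against wild-type flora, beside 34.4% of all genes. Genotype under DSS had 3, beside 5.17%, and the interaction 2, beside 7.42%. Genotype without DSS and transgenic flora against controls had 0, beside 5% and 18.1%. The medians of the list were -0.24 and -0.12 for genotype without and with DSS and -0.86 for transgenic against wild-type flora. They were 0.09 for transgenic flora against controls and 0.09 for the interaction. In these 5 contrasts the medians of all genes lay between -0.0454 and 0.00955.

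The non-member genes most like each Reg gene over the 35 mice, by r of deviations from group means, also separated Reg1 from the other 2. For Reg1 the first were Rnase1 and Try5 (0.981 each), Cela3b (0.971), Cpb1 (0.97), Prss2 (0.969), Ctrl (0.964) and 2210010C04Rik (0.963), then the colipase Clps (0.959), the zymogen granule glycoprotein Gp2 (0.946) and Try10 (0.941). For Reg2 the first was Reg3d (0.894), a gene of the same cluster, ahead of Gp2 (0.832), Try5 (0.831), Prss2 (0.829) and Clps (0.827), and then 2210010C04Rik, Cpb1, Rnase1, Ctrl and Cela3b (0.784 to 0.815). Reg3d (0.926) likewise came first for Reg3a, and the next non-member gene, Gp2, reached 0.664. Between members the same measure was 0.822 for Reg2 with Reg3a, 0.847 for Reg1 with Reg2 and 0.716 for Reg1 with Reg3a. Try5, Prss2, Cpb1, 2210010C04Rik, Clps, Cela3b, Rnase1 and Try10 followed at 0.601 to 0.662. The enzyme mean was most like Cpb1 (0.994) and Rnase1 (0.993), followed by 2210010C04Rik, Try5, Ctrl, Prss2, Cela3b, Clps, Pnliprp2 and Gp2 (0.94 to 0.987).

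Markers of other tissues near the colon had lower coefficients with the enzymes, from -0.194 to 0.136 for their list means. The mean of 10 islet genes lay between 5.63 and 6.42 in every mouse (r = -0.136 with the enzyme mean). Ppy, the pancreatic polypeptide that gut endocrine cells also make, had the widest range (7.21 to 9.7), followed by the glucose transporter Slc2a2 (5.4 to 6.93). The insulin gene Ins2 read 5.48 to 6.4, with 5.68 in WT11 and 5.74 in TG631. Of the 10 islet genes, 7 fell with wild-type flora against controls, where 35.2% of all genes were called lower. None passed in limma elsewhere, with 0 to 4 at an unadjusted p under 0.05, beside 5% to 34.4% of all genes. The 4 were for DSS in transgenic mice, beside 26.2% of all genes. The mean of 8 duct genes, led by Slc4a4 and Cftr, had r = -0.0955, and that of 10 adipose genes, led by Car3 and Retn, 0.00516. The mean of a list of 9 genes for B cells had 0.136. Its widest ranges were those of Cxcl13, a chemokine that attracts B cells, and Cd79a. Liver genes (8, led by Alb and Ttr) had -0.194, small intestine (14, led by Slc5a1 and Alpi) -0.148 and stomach (9, led by Gkn1 and Muc5ac) -0.0792. The colon's own epithelium (10 genes, led by Slc26a3 and Aqp8) had 0.0185 and smooth muscle (9 genes, led by Des and Myh11) -0.0923. The mean of 7 acinar genes that gut cells also express had 0.773, but these genes were not alike. The 2 with the widest ranges parted, with 0.953 for Gp2 and -0.129 for Spink1. Of the others, Tff2 had 0.887 and the rest -0.107 to 0.385. The part of any other tissue in the enzyme readings was not otherwise tested.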

How the data were processed

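The deposited values are log2 signal from Affymetrix Mouse Gene 1.0 ST arrays, 1 for each of 35 colons, which the authors made with RMA in Affymetrix Expression Console 1.1, per the submitters' processing notes. An array has no count depth, so 5 mice per group set the precision. RMA assumes like distributions on all arrays, and signals near 5 may be background. Of 28090 probe sets, 21639 carried 1 gene symbol (1539 carried several, 4912 were unlisted). A gene was read by its probe set with the highest mean, leaving 19908 genes. Members and gene lists (160 of 177 list genes measured) were chosen with earlier results of these data known. Genes named are the members, other Reg genes, S100a8, S100a9 and Lcn2, the 10 genes most like each Reg gene and the enzyme mean, acinar genes that passed or had the 6 widest ranges, and 2 genes per tissue list. Ins2, Ptf1a, Tff2 and Xist were added after their values were seen.

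Each of 8 contrasts was fitted with limma 3.58.1 in R 4.3.3 on its own groups, two-sided, with Benjamini-Hochberg adjustment over all genes and a threshold of 0.05, and the code was tested on simulated data. Correlations used Python 3.11.15 with numpy 2.4.6. SE is limma's moderated standard error. Groups follow the titles. Alternatives were other normalization, variance models, weights, probe set rules, a filter at the 40th percentile and leaving out each mouse. Conventional or axenic mice alone and an acinar covariate were added after seeing the data.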

Additional observations from a re-analysis of the deposited data

Results flagged for a closer look

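Single mice stood apart from the other 4 of their group for enzymes or Reg genes 26 times, among 84 sets. These sets are the same 7 groups of 5 mice read through 12 genes. For 1 set alone chance gives about 1 in 20. The sets are not independent, because the enzymes and Reg1 moved together and 8 of the genes are the chosen members. The count of 26 therefore cannot be set against chance. The DSS wild-type mouse WT55 was high for Cpa1 (9.94), Ctrb1 (10.77), Pnliprp1 (6.89), Cel (7.5), Cela2a (8.98) and Reg2 (7.67). Among recipients of wild-type flora WT880 was low for Cpa1 (6.61), Ctrb1 (7.45), Pnliprp1 (5.4), Cel (5.46), Reg1 (6.19), Reg2 (4.91), Reg3a (5.1) and Reg3d (4.56). The axenic control CT465 was high for Cpa1 (9.64), Ctrb1 (10.1), Cel (7.22), Cela2a (8.65) and Reg2 (5.63). The untreated transgenic mouse TG631 was high for Pnliprp1 (10.29), Cel (10.95), Cela2a (11.97), Reg1 (10.45) and Reg3d (5.69), while its Reg2 was 4.98. The untreated wild-type mouse WT11 was high for Reg2 (9.88) and Reg3b (7.68).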

How the results depend on the processing

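The correlations of Reg1, Reg2 and Reg3a with the enzyme and colitis means kept their sign under the alternatives tried, except with the colitis mean in conventional mice, where Reg1 had r = -0.29 (rho -0.511) and Reg3a -0.0292 (rho -0.417), and where Reg2 turned by rank (rho -0.611). In axenic mice alone the enzyme coefficients were 0.99 for Reg1, 0.975 for Reg2 and 0.944 for Reg3a. With the colitis mean Reg2 went from 0.461 to 0.0902 as rho, 0.119 with deviations from group means and 0.0375 in conventional mice, and Reg3a from 0.53 to 0.189 as rho and 0.207 with deviations. The Reg3a coefficient with the enzyme mean was 0.85 without the 2 mice farthest from the median. Leaving out each mouse gave 0.978 to 0.984 for Reg1, 0.808 to 0.906 for Reg2 and 0.664 to 0.773 for Reg3a with the enzyme mean, and 0.162 to 0.315, 0.406 to 0.537 and 0.464 to 0.575 with the colitis mean.

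Counts of the other acinar genes called depended on the fit. Array weights gave 7 for DSS in the wild type, 2 for DSS in the transgenic, 1 for genotype under DSS, 6 for transgenic against wild-type flora and 2 for transgenic flora against controls. All 35 arrays in 1 model gave 0 for DSS in transgenic mice and 2 for transgenic against wild-type flora. The acinar covariate gave 0 for DSS in transgenic mice and 2 for wild-type flora against controls. It is the mean of the same 26 genes, so lower counts are built into that fit. Leaving out each mouse gave 2 to 3 for DSS in wild-type mice, 0 to 1 in transgenic mice, 0 to 2 for transgenic against wild-type flora (1 without WT793, 2 without TG749), 16 to 20 for wild-type flora and 0 to 2 for transgenic flora against controls (2 without TG922). The causes of the other changes in count were not tested.

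Of 1152 alternative values for 64 member differences, 31 moved by more than the residual SD, 29 of them with the covariate, and 44 changed sign, 23 of them with the covariate. No paired analysis was possible because the groups share no replicate numbers. Signals near background limit Reg3a, Reg2 and Cel in mice with low enzymes.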
